A study of Mus musculus with 6 samples.

Results

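Autophagy is the process by which cells enclose part of their cytoplasm in a double membrane, the autophagosome, and deliver it to lysosomes. A kinase complex around ULK1 starts the membrane, a class III phosphatidylinositol 3-kinase marks it with the lipid PI3P, and ubiquitin-like conjugation enzymes attach proteins of the ATG8 family (LC3 and GABARAP) to it. Cargo receptors then link ubiquitinated proteins or mitochondria to ATG8 proteins. The removal of mitochondria is called mitophagy.

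The genes described here are 41 components of that machinery, taken as a list of gene symbols and chosen without a threshold on their values. Of the 41, 40 were found by symbol in a table of 22564 genes. Atg101 was found by its gene identifier (ENSMUSG00000037204), under which the table gives the symbol 9430023L20Rik. All 41 reached a mean of 1 FPKM (fragments scaled to transcript length and library size) over the 6 libraries and were among the 11416 genes tested. A fold change is given for 40 of them and not for Map1lc3b, for a reason stated with its values.

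RNA came from EOMA cells, an established mouse line from an endothelial tumour, grown in medium with serum under normoxia. One group received 2 µM DHTS (15,16-dihydrotanshinone I, a plant tanshinone) for 24 h, and the other received the solvent DMSO for 24 h, with 3 libraries in each group. Nothing in the labels tells whether libraries of the same treatment were separate cultures, and the p-values then measure only library-to-library spread, which may be technical. The series title places the work in infantile hemangioma and hypoxia-inducible factor 1.

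Libraries held 9343157 to 11113859 estimated fragments with DHTS and 9753773 to 12255243 with DMSO. The least covered gene of the 41, Atg10, had 22.0 to 51.0 estimated fragments per library, and no member exceeded 3024. A mean of 1 FPKM was reached by 5 of 20 endothelial markers, namely Egfl7, Flt1, Eng, Esam and Plvap. Tie1, Emcn, Fli1, Icam2 and Clec14a were at 0 in all 6 libraries, so most defining genes of the labelled cell type were absent or near absent. The summed level of the 20 was 36.0 to 54.7 FPKM with DHTS and 43.9 to 45.6 FPKM with DMSO. Egfl7 gave the largest part, 19.2 to 34.4 FPKM with DHTS and 26.4 to 31.6 FPKM with DMSO. Of 10 epithelial markers 6 reached a mean of 1 FPKM, with a sum of 257 to 266 FPKM with DHTS and 215 to 220 FPKM with DMSO. Krt18, which made up most of that sum, was higher with DHTS (192 to 201 against 134 to 139 FPKM), while Epcam (16.7 to 18.0 against 22.8 to 25.0 FPKM) and Elf3 (18.1 to 21.1 against 34.1 to 35.8 FPKM) were lower. Krt19, Cdh1, Cldn7 and Krt14 were near absent, with at most 0.687 FPKM in any library. Of 7 macrophage markers 3 reached a mean of 1 FPKM, with a sum of 110 to 119 FPKM with DHTS and 47.0 to 51.8 FPKM with DMSO, while Adgre1 and Itgam were at 0. The lysosomal gene Cd68 had 83.1 to 88.5 FPKM with DHTS and 4.89 to 6.36 FPKM with DMSO, whereas Cd14 (21.6 to 25.5 with DHTS, 32.9 to 38.5 with DMSO) and Csf1r (4.24 to 4.64 with DHTS, 7.69 to 9.02 with DMSO) were lower with DHTS. Of 8 fibroblast markers 1 reached a mean of 1 FPKM, and their sum was 2.53 to 2.86 FPKM with DHTS and 6.36 to 6.76 FPKM with DMSO. The part of these differences in the results below was not tested. In bulk RNA, fewer cells of a type and less RNA per cell cannot be told apart.

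DHTS-treated cells had more mRNA of the initiating kinase Ulk1, of the PI3P effector Wipi1, of Atg14, of the conjugation enzyme Atg7 and of the receptors Nbr1 and Tax1bp1, and less of the mitophagy receptor Bnip3. With limma on log2(FPKM + 1) and Benjamini-Hochberg adjustment over all 11416 genes, 15 of the 40 genes (37.5%) were higher with DHTS at an adjusted p below 0.05, 5 (12.5%) were lower and 20 did not pass. Over all tested genes 28.2% were higher and 21.9% were lower. In either direction 20 of the 40 were called, against 50.1% of all genes, so being called at all is near the background. The median of the log2 fold changes, DHTS minus DMSO, was 0.17 for the 40 genes and 0.03 for all genes, while the median absolute change was 0.22 for the 40 and 0.25 for all. Every DHTS library lay above every DMSO library in 20 of the 40 genes and below in 6, against 33.0% and 26.8% of all genes. The groups thus did not overlap for 26 of the 40 (65.0%), against 59.8% of all genes. A call with at least a 1.5-fold change was made for 7 genes (17.5%), against 18.2% of all genes. On the log2(FPKM + 1) scale a change of at least 2-fold was seen in 3 genes, Ulk1, Wipi1 and Bnip3, against 7.8% of all genes. Atg14 fell just short on that scale, at 0.96, although the ratio of its mean FPKM was 2.06. Scaling moves the split. With quantile normalization 11 of the 40 were higher and 6 lower, with a median of 0.04 against a median of -0.07 over all genes. With median-ratio scaling 14 were higher and 6 lower. Of all 11416 genes, 2551 were higher and 3411 lower with quantile normalization, and 2886 and 2939 with median-ratio scaling. Over all genes, the higher calls made up 56.3% of calls on the deposited FPKM, 42.8% after quantile normalization and 49.5% after median-ratio scaling.

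**Figure D1:**
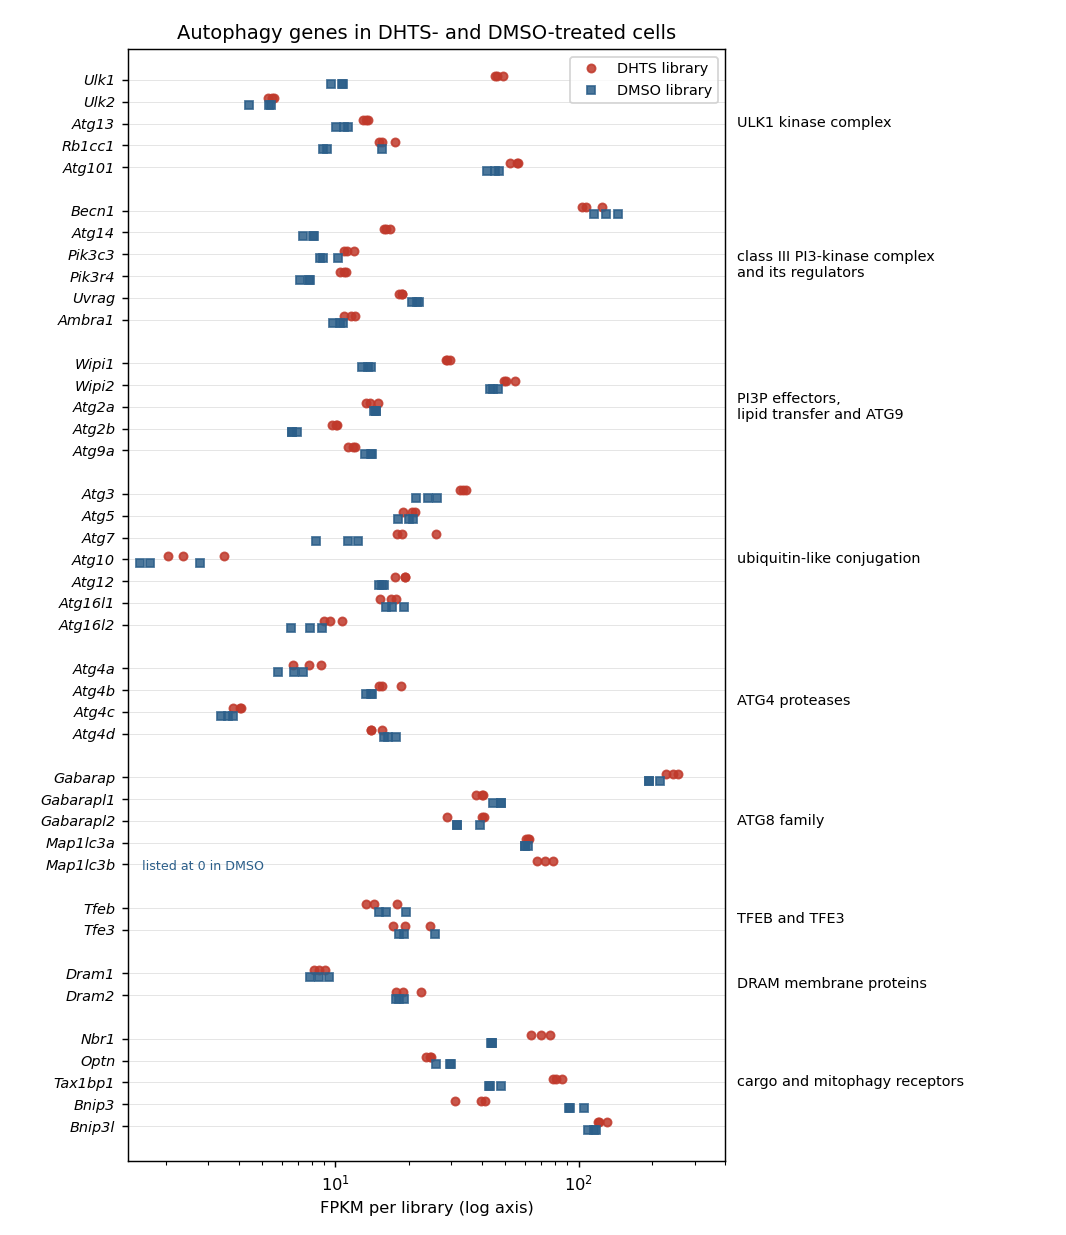
FPKM of each autophagy gene in each library on a log10 axis, with DHTS libraries drawn above DMSO libraries within each gene and genes grouped by role. Ulk1 and Bnip3 show the widest gaps between groups, in opposite directions, and Map1lc3b has no DMSO point because it is listed at 0 there.

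Gabarap was the most abundant of the 40 genes in both groups by FPKM and Atg10 the least. The order of the others shifted. Ulk1 ranked 9 with DHTS and 29 with DMSO. Wipi1 ranked 14 with DHTS and 25 with DMSO. Bnip3 ranked 11 with DHTS and 4 with DMSO. The median coefficient of variation of the 40 genes between libraries of a group was 5.49% with DHTS and 6.01% with DMSO.

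The ULK1 complex starts autophagy: ULK1 is its kinase, ATG13 and FIP200 (encoded by Rb1cc1) are its scaffolds, and ATG101 stabilises ATG13. Ulk1 (ENSMUSG00000029512, chr5:110784488-110810097, mm10) had 45.3, 46.4 and 48.8 FPKM in DHTS libraries, against 9.58, 10.7 and 10.8 FPKM in DMSO libraries. The groups were far apart, with little spread in either. The means were 46.9 ± 1.78 with DHTS and 10.3 ± 0.663 with DMSO (SD, n = 3 each), a log2 fold change of 2.08 (SE 0.06, adjusted p = 6.5e-07). Its promoter is shown because this was the largest change of the 40 genes in size. The window of 300 bases, from 250 before to 50 after the RefSeq start (GRCm38.p6, minus strand, chr5:110810032-110810331), reads 5′ to 3′ with matches to the GC box CCGCCC in capitals:
Ulk1: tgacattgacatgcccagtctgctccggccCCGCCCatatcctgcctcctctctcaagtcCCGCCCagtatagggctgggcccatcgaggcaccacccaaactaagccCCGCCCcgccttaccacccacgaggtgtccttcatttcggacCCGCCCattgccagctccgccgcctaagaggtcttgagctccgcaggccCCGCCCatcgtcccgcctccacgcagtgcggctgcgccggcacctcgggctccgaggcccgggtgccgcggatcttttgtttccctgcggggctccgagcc
The window holds 5 matches. CCGCCC, or GGGCGG for the other strand, was found in 25 of the 34 members whose RefSeq window was used (73.5%). It was in 71.8% of 8530 tested genes and in 38.2% of 27025 genes with a window, so the members' share is near that of expressed genes.

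The other subunits changed less. Atg101 had 55.9, 56.2 and 52.3 FPKM with DHTS, against 42.0, 45.5 and 47.2 FPKM with DMSO, a log2 fold change of 0.28 (SE 0.06, adjusted p = 0.0056). Atg13 had 13.0, 13.6 and 13.4 FPKM with DHTS, against 10.8, 11.3 and 10.0 FPKM with DMSO, a log2 fold change of 0.29 (SE 0.07, adjusted p = 0.0089). For both genes every DHTS library was above every DMSO library, but the Atg13 call was lost after quantile normalization (adjusted p = 0.091). Ulk2, the paralog of Ulk1, had 5.26, 5.47 and 5.61 FPKM with DHTS, against 4.41, 5.41 and 5.32 FPKM with DMSO, with overlapping groups and a log2 fold change of 0.10 (95% interval -0.13 to 0.32, adjusted p = 0.42). Ulk1 therefore made up 89.6 ± 0.123% of the summed FPKM of the pair with DHTS and 67.3 ± 1.11% with DMSO (SD, n = 3 each), in a sum of 52.3 ± 1.95 FPKM with DHTS and 15.4 ± 1.21 FPKM with DMSO.

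Rb1cc1 did not pass on FPKM, and that outcome rests on 1 library. It had 15.1, 15.5 and 17.6 FPKM with DHTS, against 15.6, 9.20 and 8.92 FPKM with DMSO, so DMSO replicate 1 lay among the DHTS libraries. The log2 fold change was 0.52 (SE 0.20, adjusted p = 0.063), and without DMSO replicate 1 it was 0.76 (adjusted p = 0.0011). The second set of deposited columns, estimated fragments scaled by 1 factor per library and not divided by a length, does not show that library apart: Rb1cc1 had 762.0, 755.0 and 798.2 scaled fragments with DHTS, against 552.4, 534.2 and 481.9 with DMSO. On log2(scaled fragments + 1) the fold change was 0.56 (adjusted p = 5.0e-08). The length implied by dividing fragments by FPKM was 4786, 4639 and 4297 bases in DHTS libraries, against 3381, 5525 and 5131 bases in DMSO libraries. GENCODE M21 lists 16 transcripts of this gene, of 332 to 7607 bases.

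The class III PI3-kinase complex consists of the lipid kinase VPS34 (Pik3c3), the regulatory subunit VPS15 (Pik3r4), Beclin 1 (Becn1), and either ATG14, which directs it to autophagosomes, or UVRAG, which directs it to endosomes. Of these and Ambra1, an activator of Beclin 1, 3 of 6 genes were higher, 1 was lower and 2 did not pass. The shares over all tested genes were 28.2% higher and 21.9% lower. Atg14 had 16.7, 16.1 and 15.9 FPKM with DHTS, against 7.35, 8.10 and 8.16 FPKM with DMSO, without overlap. Its log2 fold change was 0.96 (SE 0.07, adjusted p = 3.1e-05). Pik3r4 had 10.4, 11.0 and 10.9 FPKM with DHTS, against 7.13, 7.89 and 7.80 FPKM with DMSO, a log2 fold change of 0.45 (SE 0.07, adjusted p = 0.0015). Pik3c3 had 11.9, 11.1 and 10.9 FPKM with DHTS, against 8.62, 10.2 and 8.93 FPKM with DMSO. Its log2 fold change of 0.26 (SE 0.08, adjusted p = 0.032) was the least stable of the higher calls: 8 of 17 alternatives lost it. Among these were quantile normalization (adjusted p = 0.24) and leaving out DHTS replicate 1 (adjusted p = 0.096), DHTS replicate 2 (0.067), DHTS replicate 3 (0.0503), DMSO replicate 1 (0.096) or DMSO replicate 3 (0.091).

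The partner of the other complex went the other way. Uvrag had 18.8, 18.8 and 18.3 FPKM with DHTS, against 21.6, 22.1 and 20.6 FPKM with DMSO, a log2 fold change of -0.19 (SE 0.05, adjusted p = 0.020). The call was lost without DHTS replicate 3 (adjusted p = 0.056), DMSO replicate 1 (0.057) or DMSO replicate 2 (0.066), and Uvrag is among 5 of the 41 genes (with Atg9a, Gabarapl2, Map1lc3a and Dram1) that held fractional fragments. Becn1, the most highly expressed gene of the complex, had 107, 125 and 103 FPKM with DHTS, against 130, 145 and 116 FPKM with DMSO, with overlapping groups (log2 fold change -0.22, SE 0.10, adjusted p = 0.10). It passed without DHTS replicate 2 (adjusted p = 0.039) and without DMSO replicate 3 (adjusted p = 0.045), yet its scaled fragments were 1994 ± 51.2 with DHTS and 2033 ± 43.5 with DMSO (SD, n = 3 each), a log2 fold change of -0.03 (adjusted p = 0.53). Ambra1 was 11.5 ± 0.631 FPKM with DHTS and 10.3 ± 0.499 FPKM with DMSO (adjusted p = 0.14).

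WIPI proteins bind PI3P, ATG2 proteins move lipids from the endoplasmic reticulum to the growing membrane, and ATG9 is the transmembrane scramblase on the vesicles that seed it. Wipi1 had 28.4, 28.7 and 29.5 FPKM with DHTS, against 14.0, 13.6 and 12.9 FPKM with DMSO. That is close to a doubling with tight replicates (log2 fold change 1.04, SE 0.05, adjusted p = 7.5e-06). Its paralog Wipi2, which recruits ATG16L1, had 49.2, 50.3 and 54.8 FPKM with DHTS, against 46.6, 43.1 and 44.6 FPKM with DMSO, a log2 fold change of 0.20 (SE 0.06, adjusted p = 0.024). That call was lost without DHTS replicate 3 (adjusted p = 0.061), DMSO replicate 2 (0.074) or DMSO replicate 3 (0.063), and after quantile normalization (0.052). Wipi1 was 36.0 ± 0.873% of the summed FPKM of Wipi1 and Wipi2 with DHTS and 23.2 ± 0.775% with DMSO.

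Of the ATG2 paralogs, Atg2b was called and Atg2a was not, and the difference between them was not tested. Atg2b had 10.0, 9.66 and 10.2 FPKM with DHTS, against 6.62, 6.98 and 6.62 FPKM with DMSO, a log2 fold change of 0.50 (SE 0.07, adjusted p = 0.00072). Atg2a had 13.9, 13.4 and 15.0 FPKM with DHTS, against 14.7, 14.4 and 14.6 FPKM with DMSO, and did not pass (log2 fold change -0.05, adjusted p = 0.57). Atg9a had 12.0, 11.8 and 11.3 FPKM with DHTS, against 14.0, 13.2 and 14.2 FPKM with DMSO, a log2 fold change of -0.22 (SE 0.06, adjusted p = 0.021). Although its groups did not overlap, the call was lost without DHTS replicate 3 (adjusted p = 0.061), DMSO replicate 1 (0.063) or DMSO replicate 3 (0.068).

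**Figure D2:**
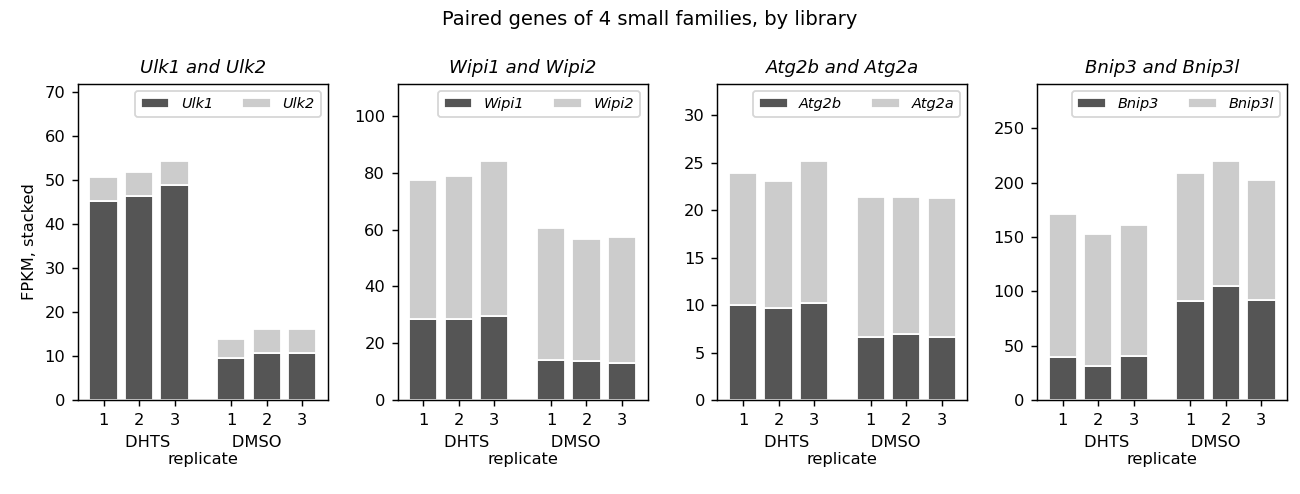
FPKM in each library of 4 pairs of related genes, as stacked bars with a panel per pair (Ulk1 with Ulk2, Wipi1 with Wipi2, Atg2b with Atg2a, Bnip3 with Bnip3l) and the DHTS libraries left of the DMSO libraries. The dark part of the bar, the first gene, is taller with DHTS for Ulk1, Wipi1 and Atg2b and shorter for Bnip3, while the sum for Ulk1 and Ulk2 is 52.3 FPKM with DHTS and 15.4 FPKM with DMSO.

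Lipidation of ATG8 proteins is a ubiquitin-like reaction in which ATG7 acts as E1, ATG3 as E2, and the ATG12, ATG5 and ATG16L1 complex as E3. ATG10 is the E2 enzyme of the reaction that joins ATG12 to ATG5. Of the conjugation genes, 3 of 7 were higher and 4 did not pass, where 28.2% of all tested genes were higher and 21.9% lower. Atg7 had 26.0, 17.9 and 18.8 FPKM with DHTS, against 11.3, 12.4 and 8.35 FPKM with DMSO. The DHTS values were more scattered than most but lay above all DMSO values (log2 fold change 0.91, SE 0.18, adjusted p = 0.0049), and scaled fragments were tighter, at 431.6 ± 19.5 with DHTS and 246.5 ± 11.9 with DMSO (SD, n = 3 each). Atg3 had 32.6, 34.5 and 33.5 FPKM with DHTS, against 26.3, 24.0 and 21.4 FPKM with DMSO, a log2 fold change of 0.48 (SE 0.08, adjusted p = 0.0020). Atg12 had 19.3, 19.4 and 17.6 FPKM with DHTS, against 15.5, 15.1 and 15.8 FPKM with DMSO, a log2 fold change of 0.26 (SE 0.06, adjusted p = 0.010) that was lost after quantile normalization (adjusted p = 0.074).

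The acceptor of ATG12 and the scaffold of the E3 complex stayed below the threshold. Atg5 had 20.7, 21.2 and 18.9 FPKM with DHTS, against 20.8, 18.1 and 20.1 FPKM with DMSO, with a log2 fold change of 0.04 (95% interval -0.13 to 0.21, adjusted p = 0.68). Atg16l1 had 16.9, 15.3 and 17.8 FPKM with DHTS, against 17.1, 16.2 and 19.1 FPKM with DMSO (adjusted p = 0.54). Atg16l2 had 10.6, 8.97 and 9.48 FPKM with DHTS, against 7.85, 8.80 and 6.58 FPKM with DMSO (log2 fold change 0.30, adjusted p = 0.066). Atg10, at 2.06 to 3.47 FPKM with DHTS and 1.58 to 2.76 FPKM with DMSO, had the fewest fragments and a wide SE of 0.20 around a log2 fold change of 0.26 (adjusted p = 0.31).

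The E-box core CACGTG, the palindrome at the centre of the sites bound by TFEB, TFE3 and other basic helix-loop-helix factors, was found in the 300-base windows of 5 of 34 members (14.7%), in 12.1% of the 8530 tested genes and in 8.09% of all 27025 genes. The windows of the 4 core autophagy genes among them are shown 5′ to 3′ around the match, which is in capitals (RefSeq, GRCm38.p6: Atg14 chr14:47568400-47568465 on the minus strand, Atg7 chr6:114670934-114670999, Atg3 chr16:45158705-45158770 and Atg5 chr10:44268295-44268360 on the plus strand):
Atg14: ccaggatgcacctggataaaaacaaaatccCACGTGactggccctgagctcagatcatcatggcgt
Atg7: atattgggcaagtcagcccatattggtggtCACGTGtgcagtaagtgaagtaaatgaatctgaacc
Atg3: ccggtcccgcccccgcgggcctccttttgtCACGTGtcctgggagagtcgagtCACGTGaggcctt
Atg5: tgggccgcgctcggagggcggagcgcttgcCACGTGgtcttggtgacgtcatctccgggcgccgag
Of these genes Atg14, Atg7 and Atg3 were higher with DHTS and Atg5 did not pass, and the fifth gene with the motif, Bnip3, was lower. The RefSeq starts used for Atg14 and Atg7 lie 2215 and 27999 bases inside the genes as GENCODE M21 annotates them. A match is a description of the letters and not a bound site.

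ATG4 proteases prepare ATG8 proteins for lipidation and cut them from membranes later. None of the 4 genes passed with limma on FPKM, whereas 50.1% of all tested genes did. All 4 had an adjusted p between 0.063 and 0.29 and 2, Atg4b and Atg4d, an unadjusted p below 0.05. The log2 fold changes were 0.19 for Atg4a, 0.23 for Atg4b, 0.12 for Atg4c and -0.19 for Atg4d. Atg4d had 14.0, 15.6 and 14.0 FPKM with DHTS, against 16.5, 17.7 and 15.8 FPKM with DMSO, and was called lower on scaled fragments (log2 fold change -0.20, adjusted p = 0.024).

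The ATG8 genes split. Gabarap had 229, 257 and 244 FPKM with DHTS, against 216, 194 and 195 FPKM with DMSO, a log2 fold change of 0.27 (SE 0.06, adjusted p = 0.0074). Gabarapl1 moved in the opposite direction, with 37.8, 40.1 and 40.4 FPKM with DHTS, against 44.6, 47.9 and 48.2 FPKM with DMSO (log2 fold change -0.24, SE 0.05, adjusted p = 0.0066). In both genes the groups were separate. Gabarapl2 had 40.8, 40.2 and 28.7 FPKM with DHTS, against 39.3, 31.8 and 31.7 FPKM with DMSO (log2 fold change 0.08, adjusted p = 0.68). Map1lc3a, which encodes LC3A, had 61.9, 62.8 and 61.0 FPKM with DHTS, against 62.2, 60.2 and 60.2 FPKM with DMSO (log2 fold change 0.02, adjusted p = 0.62). Gabarap supplied 76.2 ± 1.71% of the FPKM of the 3 GABARAP genes with DHTS and 71.3 ± 0.609% with DMSO.

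Map1lc3b encodes LC3B, the protein most used to follow autophagosomes. It had 67.7, 72.4 and 78.4 FPKM in DHTS libraries and was listed at 0 in all 3 DMSO libraries (chr8:121590361-121598760, mm10). It lies in a span that the table gives as a single merged locus (chr8:119910360-124345724) with 75 genes, all of them listed at 0 in every DMSO library, and 52 of them passing the filter. The 0 is therefore shared by the whole span, and no fold change is given for this gene. With DHTS its level was above that of Map1lc3a in each library.

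TFEB and TFE3 are transcription factors that raise lysosomal and autophagy genes, and DRAM1 and DRAM2 are lysosomal membrane proteins, the first a known p53 target. None of the 4 genes passed with limma on FPKM, whereas 50.1% of all tested genes did, and 0 of the 4 had an unadjusted p below 0.05. Tfeb had 17.9, 14.4 and 13.4 FPKM with DHTS, against 19.5, 15.1 and 16.2 FPKM with DMSO (log2 fold change -0.14, adjusted p = 0.39), and Tfe3 had 17.2, 19.3 and 24.5 FPKM with DHTS, against 25.8, 18.3 and 19.2 FPKM with DMSO (log2 fold change -0.05, adjusted p = 0.82). In both the groups overlapped and the spread within a group exceeded the difference. Dram1 had 8.14, 8.54 and 9.06 FPKM with DHTS, against 7.87, 9.44 and 8.59 FPKM with DMSO (log2 fold change -0.01, adjusted p = 0.96). Dram2 had 17.7, 22.4 and 18.9 FPKM with DHTS, against 19.2, 17.8 and 18.2 FPKM with DMSO (log2 fold change 0.09, adjusted p = 0.45).

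The receptors moved most unevenly. NBR1, TAX1BP1 and optineurin (Optn) bind ubiquitinated cargo, whereas BNIP3 and BNIP3L (also called NIX) sit in the outer mitochondrial membrane and are known from other work as hypoxia-responsive mitophagy receptors. Tax1bp1 had 85.1, 78.9 and 80.7 FPKM with DHTS, against 47.8, 43.3 and 42.7 FPKM with DMSO, a log2 fold change of 0.86 (SE 0.06, adjusted p = 2.5e-05). Nbr1 had 76.2, 69.9 and 63.7 FPKM with DHTS, against 44.0, 44.0 and 43.6 FPKM with DMSO, a log2 fold change of 0.66 (SE 0.07, adjusted p = 0.00019). For Tax1bp1 and Nbr1 the groups were separate by a wide margin. Optn had 24.8, 24.6 and 23.7 FPKM with DHTS, against 26.0, 29.7 and 29.8 FPKM with DMSO, a log2 fold change of -0.22 (SE 0.07, adjusted p = 0.029). Its call was lost in each leave-one-out fit but that without DMSO replicate 1: the adjusted p was 0.059, 0.062 and 0.079 without DHTS replicate 1, 2 and 3, and 0.090 and 0.092 without DMSO replicate 2 and 3.

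Bnip3 (chr7:138890836-138909519, mm10) fell the most. It had 39.9, 31.0 and 41.1 FPKM with DHTS, against 91.5, 105 and 92.6 FPKM with DMSO, so the highest DHTS library had less than any DMSO library by a wide margin. The means were 37.3 ± 5.48 with DHTS and 96.4 ± 7.50 with DMSO (SD, n = 3 each), a log2 fold change of -1.35 (SE 0.11, adjusted p = 7.3e-05). Its promoter window is shown because it is the member with the largest fall and holds an E-box core. The shorter ACGTG, a form of the core of the site bound by hypoxia-inducible factors, lies within that CACGTG. The window is given 5′ to 3′ (RefSeq, GRCm38.p6, minus strand, chr7:138909457-138909756, CACGTG in capitals 108 bases before the start):
Bnip3: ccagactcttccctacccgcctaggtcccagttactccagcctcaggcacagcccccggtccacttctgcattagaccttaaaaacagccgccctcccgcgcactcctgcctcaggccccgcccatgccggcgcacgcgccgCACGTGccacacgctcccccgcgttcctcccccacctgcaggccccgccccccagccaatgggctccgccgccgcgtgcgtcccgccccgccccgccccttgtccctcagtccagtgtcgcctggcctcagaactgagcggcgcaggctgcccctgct
ACGTG, searched on both strands, was found in 17 of 34 members, in 30.2% of the 8530 tested genes and in 21.8% of all genes with a window. Other forms of that core were not searched. Of the 17, 9 were called higher (Atg101, Atg14, Atg2b, Atg3, Atg7, Gabarap, Nbr1, Pik3r4 and Tax1bp1), 3 were called lower (Bnip3, Uvrag and Atg9a) and 5 did not pass. Of all tested genes, with or without the motif, 28.2% were called higher and 21.9% lower, and no test was run on these shares.

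Bnip3l, the paralog of Bnip3, gave opposite signs in the deposited units. It had 131, 121 and 120 FPKM with DHTS, against 118, 115 and 110 FPKM with DMSO, a log2 fold change of 0.12 (SE 0.05, adjusted p = 0.078). In scaled fragments it had 2318, 2226 and 2278 with DHTS, against 2596, 2482 and 2513 with DMSO, a log2 fold change of -0.15 (adjusted p = 0.00063). The groups were separate in both units, above DMSO in FPKM and below DMSO in fragments. The implied length was 1679, 1744 and 1804 bases with DHTS, against 2096, 2046 and 2173 bases with DMSO. Relative to the median of all genes this is a log2 difference of -0.27, and only Bnip3l and Atg16l2 (0.22) of the 40 genes differed by more than 0.2 in size, against 7.21% of 11286 genes. A direction for Bnip3l is therefore not given. Bnip3, in contrast, fell in both units, with 487.5 ± 26.1 scaled fragments with DHTS and 1205 ± 26.4 with DMSO (log2 fold change -1.30, adjusted p = 3.4e-15). The summed FPKM of the pair was 161 ± 9.28 with DHTS and 211 ± 9.10 with DMSO, and the share of Bnip3 in it was 23.1 ± 2.59% with DHTS and 45.7 ± 1.97% with DMSO. These values take in the FPKM of Bnip3l. On scaled fragments, which are not divided by a length, the sum was 2762 ± 68.8 with DHTS and 3735 ± 54.0 with DMSO, and the share of Bnip3 was 17.6 ± 0.576% with DHTS and 32.3 ± 0.827% with DMSO (SD, n = 3 each).

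**Figure D3:**
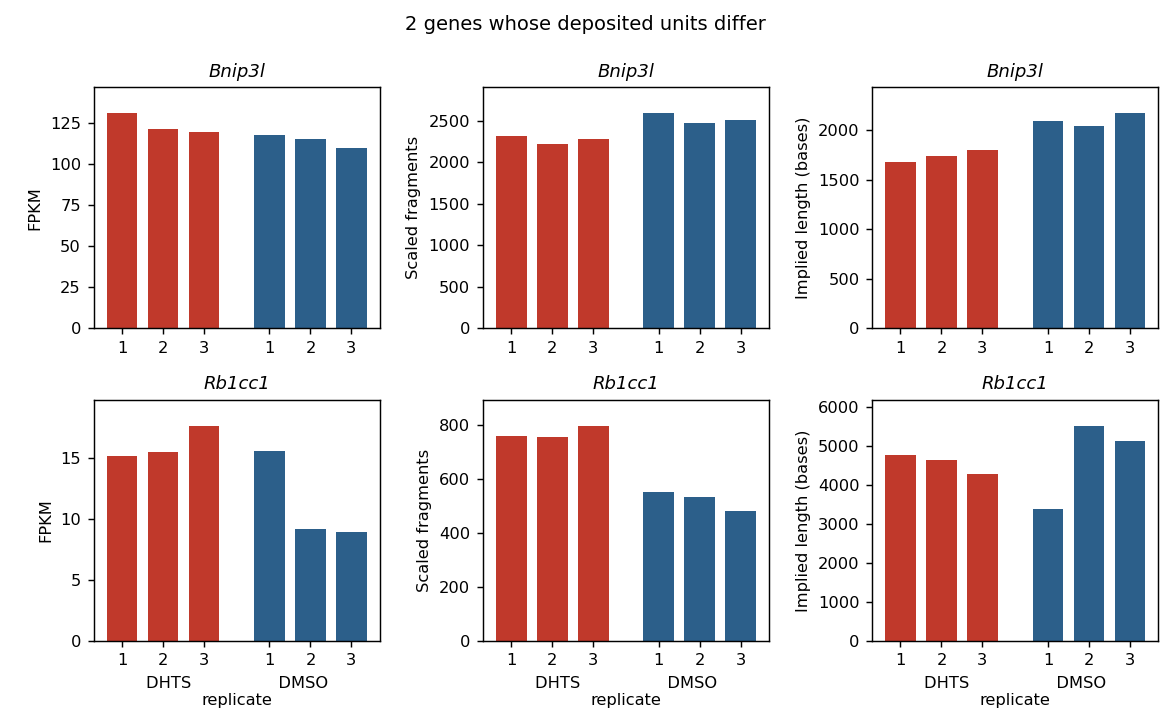
FPKM, scaled fragments and implied length in bases of Bnip3l (upper row) and Rb1cc1 (lower row), 1 bar per library, with DHTS in red left of DMSO in blue. Bnip3l is higher with DHTS in FPKM and lower in fragments, and DMSO replicate 1 of Rb1cc1 has 15.6 FPKM and the shortest implied length, 3381 bases.

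Across the 40 genes the units gave the same sign in 36. On scaled fragments 19 genes (47.5%) were higher and 8 lower, against 33.9% and 28.6% of the 11930 genes tested on that unit (62.5% in either direction), and 15 higher and 5 lower genes were called by both. The call differed between units for 7 of the 40 genes (17.5%), against 16.1% of 11282 genes tested in both units, which is near the background. Opposite calls by the units were made for 0 of the 40 genes, against 0.0177% of all genes. Ulk2, Rb1cc1, Ambra1 and Atg16l2 were called higher on fragments and not on FPKM. Atg4d, Tfeb and Bnip3l were called lower on fragments and not on FPKM. With fragments all 5 genes of the ULK1 complex were called higher: Ulk1 at a log2 fold change of 2.18 (adjusted p = 8.8e-20) and Ulk2 at 0.21 (adjusted p = 0.043) bound the range. The Ulk2 call was made under no other alternative, and with median-ratio scaling of the fragments its adjusted p was 0.081. Tfeb had a log2 fold change of -0.24 on fragments (adjusted p = 0.026).

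**Figure D4:**
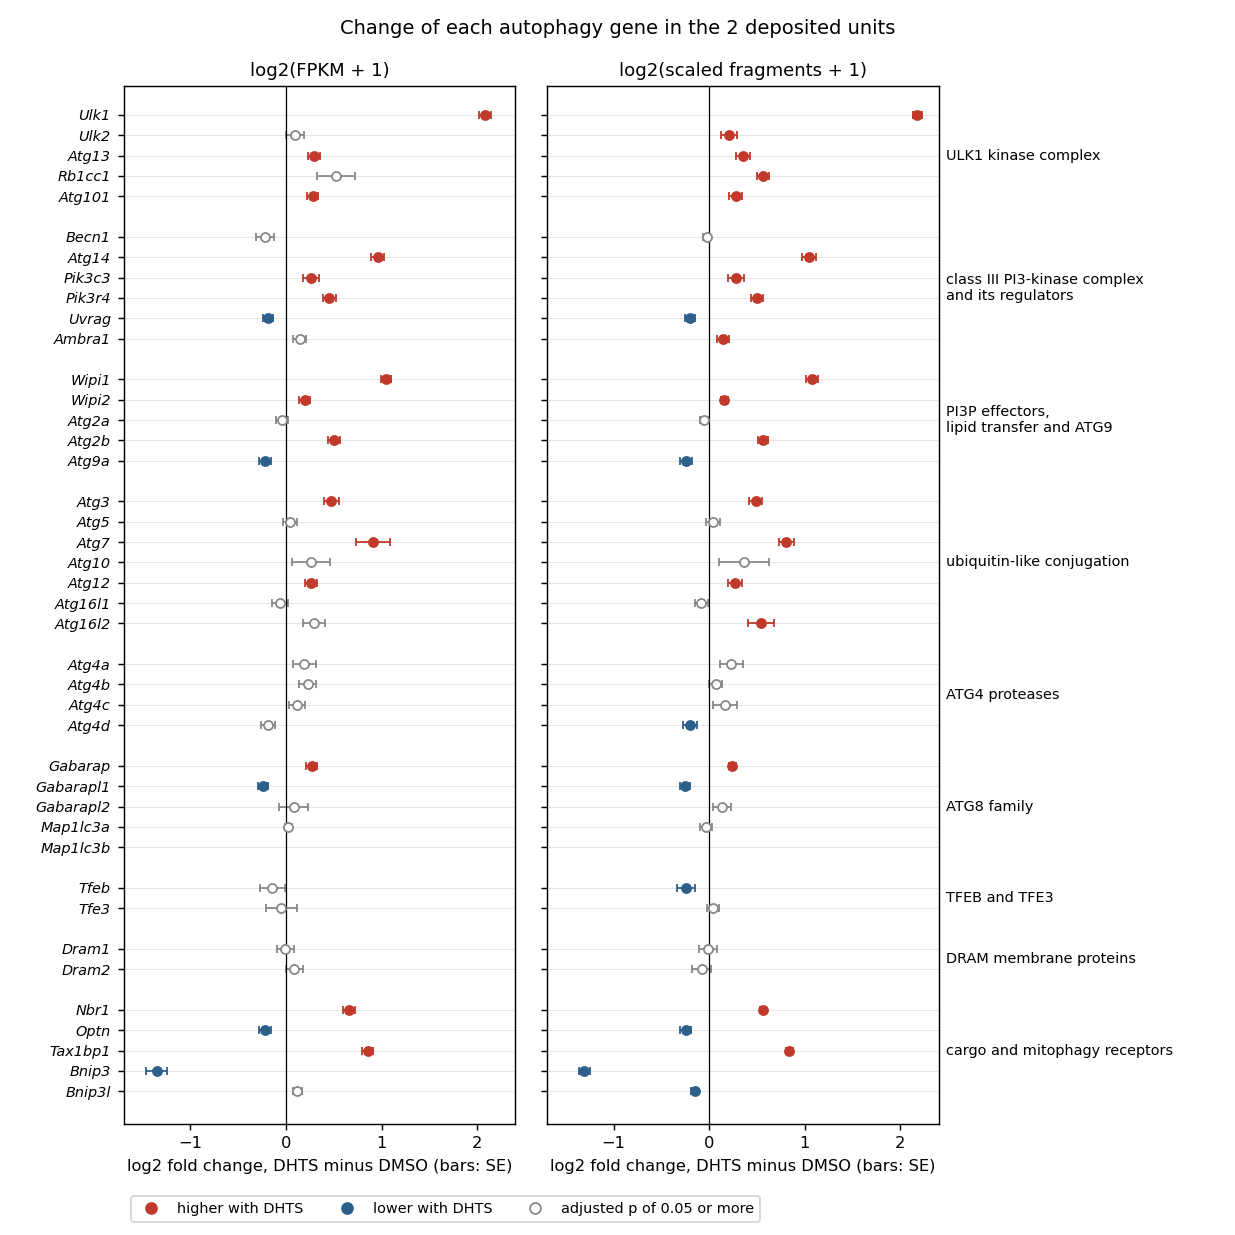
Log2 fold change, DHTS minus DMSO, with its SE for each autophagy gene, on FPKM (left panel) and on scaled fragments (right panel), with genes grouped by role, red for higher and blue for lower at an adjusted p below 0.05. Ulk1 at 2.08 and Bnip3 at -1.35 on FPKM are the ends of the range in the left panel.

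The rest of the pathway was read from 5 lists of 75 further autophagy genes, 74 of which were tested. Higher calls were made for 29 of them (39.2%) and lower calls for 12 (16.2%), and their median was 0.14 on the log2 scale, beside 28.2% and 21.9% of all genes and a median of 0.03. The split was 23 higher and 15 lower after quantile normalization, and 27 and 15 after median-ratio scaling. Over all 11416 genes these settings gave 2551 higher and 3411 lower, and 2886 and 2939. On scaled fragments the split was 40 and 14, and with median-ratio scaling of them 36 and 18. Over all 11930 genes tested on that unit it was 4050 and 3411, and 3737 and 3758 with median-ratio scaling. Among 15 further initiation genes 6 were higher and 4 lower. Trp53inp1, a p53 target that binds ATG8 proteins, had 124 ± 4.66 FPKM with DHTS and 12.9 ± 0.858 FPKM with DMSO (log2 fold change 3.17, adjusted p = 8.1e-08). Ei24, an endoplasmic reticulum protein, had 96.1 ± 4.37 FPKM with DHTS and 35.2 ± 1.28 FPKM with DMSO (log2 fold change 1.42, adjusted p = 1.2e-06). Among the 40 genes only Ulk1 rose by more than Ei24, and none by more than Trp53inp1. Zfyve1, which encodes the omegasome protein DFCP1, had a log2 fold change of 0.81, and Nrbf2, a partner of the ATG14 complex, one of 0.51.

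Among 13 genes that act in fusion with lysosomes, 7 were higher and the other 6 did not pass, against 28.2% of all genes called higher. On scaled fragments 12 of the 13 were higher, against 33.9% of all genes. They include Stx17, whose sign differed between the units. Its log2 fold change was -0.11 on FPKM (adjusted p = 0.48) and 0.31 on scaled fragments (adjusted p = 0.0036). Tecpr1, a tether of autophagosomes and lysosomes, had 19.9 ± 1.80 FPKM with DHTS and 9.42 ± 0.364 FPKM with DMSO (log2 fold change 1.00, adjusted p = 5.7e-05). Vps18, Vps41 and Vps33a, subunits of the HOPS tethering complex, had log2 fold changes of 0.79, 0.69 and 0.42. Among 15 further receptors 3 were higher and 6 lower, where 21.9% of all genes were lower. The ubiquitin receptor Sqstm1 (p62) had 324 ± 6.83 FPKM with DHTS and 208 ± 5.69 FPKM with DMSO (log2 fold change 0.64, adjusted p = 7.6e-06), and Calcoco1 had a log2 fold change of 0.53. On the other side, Rtn3, a receptor for tubules of the endoplasmic reticulum, had 89.6 ± 1.68 FPKM with DHTS and 149 ± 5.55 FPKM with DMSO (log2 fold change -0.73, adjusted p = 8.5e-06). Stbd1, which binds glycogen, had 11.3 ± 0.601 FPKM with DHTS and 22.2 ± 1.01 FPKM with DMSO (log2 fold change -0.92, adjusted p = 3.4e-05).

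Of 7 tested genes of the PINK1 and Parkin pathway, which marks damaged mitochondria with ubiquitin, 2 were higher, a share near the 28.2% of all genes. Pink1, the kinase that starts it, had 13.0 ± 0.231 FPKM with DHTS and 6.56 ± 0.608 FPKM with DMSO (log2 fold change 0.89, adjusted p = 0.00011), a rise where Bnip3 fell. Usp30, a deubiquitinase that opposes the pathway, had a log2 fold change of 0.25 (adjusted p = 0.011). Among 24 genes of the AMPK, mTORC1 and TFEB control layer 11 were higher and 2 lower, beside 28.2% and 21.9% of all genes. Flcn, the folliculin gene, had 30.3 ± 0.442 FPKM with DHTS and 14.2 ± 1.82 FPKM with DMSO (log2 fold change 1.05, adjusted p = 8.3e-05), and its partner Fnip1 had a log2 fold change of 0.62. Rragd, a Rag GTPase and known TFEB target, had 3.25 ± 0.231 FPKM with DHTS and 1.27 ± 0.0980 FPKM with DMSO (log2 fold change 0.91, adjusted p = 0.00034). Foxo3, a transcription factor known to raise autophagy genes, had 38.5 ± 2.58 FPKM with DHTS and 21.4 ± 1.10 FPKM with DMSO (log2 fold change 0.82, adjusted p = 7.2e-05).

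**Figure D5:**
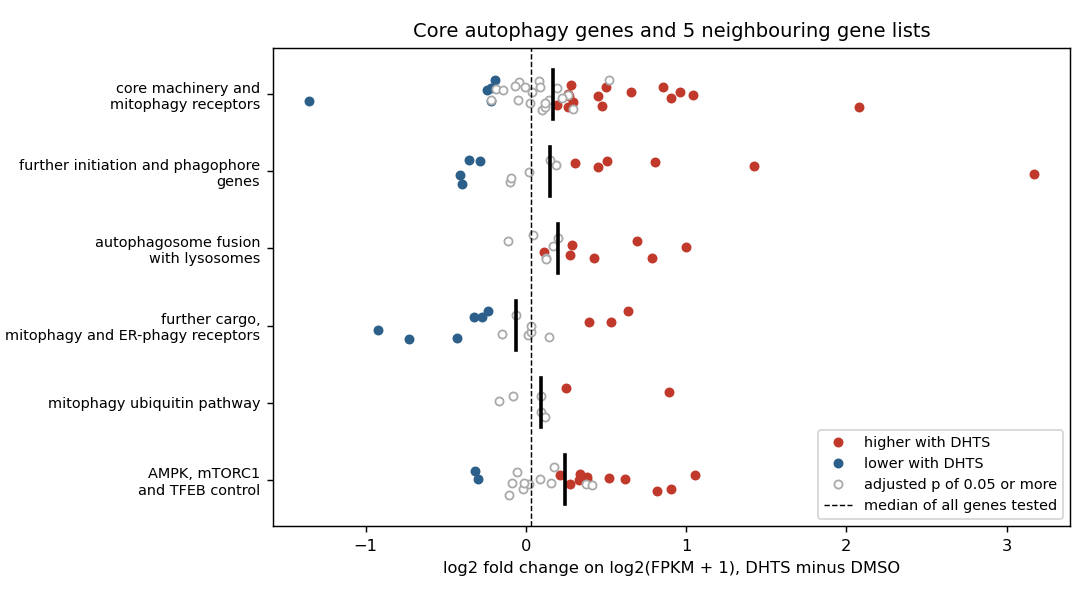
Log2 fold change, DHTS minus DMSO, on log2(FPKM + 1), 1 point per gene, for the 40 core genes (top) and the 5 further lists, with red for higher, blue for lower and open for an adjusted p of 0.05 or more. Thick bars are list medians and the dashed line is the median of all tested genes, 0.03; the 13 fusion genes hold no blue point, and the 15 further receptors spread to both sides.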

How the data were processed

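The tools named in the submitters' processing notes are Cuffdiff 2.2.1, Cufflinks, HISAT2 2.0.4 and fastp 0.20.0, with the build mm10, and the role of each is not stated there. The authors' deposited table gives FPKM per gene and library. Its columns headed as counts hold a signal that the authors deposited as estimated fragments scaled by 1 factor per library. Of these values, 92.7% to 93.0% lay within 0.1 of whole fragments once the factor was undone, and 1525 tested genes (13.4%) held fractions. No count model was fitted for that reason.

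The test was limma 3.58.1 (R 4.3.3), run on log2(FPKM + 1) over 11416 genes with a mean of at least 1 FPKM, with trend and robust options, two-sided, with Benjamini-Hochberg adjustment and a threshold of 0.05. Every fold change from FPKM is on the log2(FPKM + 1) scale, which understates changes of low genes. Scaled fragments (mean of at least 10) were tested likewise on log2(value + 1). SD is over the 3 libraries of a group and SE is limma's. Pearson's r across genes was 0.986 to 0.989 within a group and 0.929 to 0.932 between groups, where genes are not independent replicates. An exact permutation test of 3 against 3 libraries cannot go below 0.10, so none was used.

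The members and the further lists were chosen with earlier results of these data known. All members were named, and of each further list up to 4 called genes with the largest change. The fit was tested on simulated data, where it recovered 76.1% of 1.5-fold changes and 98.5% of 2-fold and of 4-fold changes, with 9 false calls among 190. Smaller changes were not simulated. The simulated spread was a set value and not taken from these libraries, so recovery in the real data can differ. Promoters are RefSeq windows (GRCm38.p6, 250 bases before to 50 after the start), used for 34 of the 41 genes. Windows on chromosome 18, where Pik3c3 and Atg12 lie, were left out of the members and of the shares over tested and all genes. Alternatives were another pseudocount (0.1), no filter or one at 5 FPKM, quantile normalization, median-ratio scaling, a fit with neither trend nor robust, a replicate block, each library left out, the scaled fragments and the merged locus left out. Scaled fragments with median-ratio scaling and a fit without genes holding fractional fragments were chosen after seeing the data.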

Additional observations from a re-analysis of the deposited data

How the results depend on the processing

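Of the 15 higher genes, 11 kept their call under every alternative that tested them, and Atg13, Pik3c3, Atg12 and Wipi2 did not. Of the 5 lower genes, Bnip3 and Gabarapl1 kept theirs. The number of members called lower, 5 in all, was 8 on scaled fragments, 8 on scaled fragments with median-ratio scaling and 3 without genes holding fractional fragments, which removes Uvrag and Atg9a from the test. Leaving out a library gave 13 to 15 higher and 2 to 6 lower members (2 without DHTS replicate 3, 3 without DMSO replicate 1 and 3 without DMSO replicate 2). Over all 11416 genes the same fits gave 2853 to 2925 higher and 2176 to 2306 lower. Over all genes, 2502 of 11416 were lower on FPKM, and 2241 of 9891 without genes holding fractional fragments. Of the 11930 genes tested on scaled fragments 3411 were lower, and 3758 with median-ratio scaling of them. Bnip3l reversed its sign on scaled fragments (-0.15) and with median-ratio scaling of them (-0.18); for the other changes the cause was not tested.

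The replicate numbers are shared by the groups, and the labels do not say whether they mark pairs. Deviations of same-numbered libraries correlated at -0.045, 0.063 and 0.012, and those of differently numbered libraries at -0.080 to 0.075. With so few libraries these values cannot decide whether libraries were paired. With a replicate block 15 members were higher and 4 lower, beside 3053 higher and 2384 lower of all 11416 genes. Becn1 (adjusted p = 0.0082, lower) and Bnip3l (0.048, higher) gained a call, and Pik3c3 (0.062), Atg9a (0.051) and Optn (0.055) lost one. Depth limits Atg10, at 22.0 fragments in its lowest library.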
